A study of Mus musculus with 24 samples.

Results

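The RNA levels of 10 genes of the hypoxia-inducible factor (HIF) pathway were followed in mouse leukaemia cells before and after knockdown of Ogdh. The 10 were picked by gene symbol, with earlier results of these data known. Each had 1 row among the 53465 genes of the deposited count table, and all passed the filter on low counts. They are the factor's subunit gene Hif1a, the prolyl hydroxylase genes Egln1 and Egln3, the ubiquitin ligase gene Vhl, and the target genes Vegfa, Bnip3, Bnip3l, Ndrg1, Ak4 and Ankrd37. The cells were RN2, an acute myeloid leukaemia line driven by Mll-Af9 together with a mutant Nras allele. Each clone carried 1 doxycycline-inducible short hairpin RNA from a retroviral vector. The hairpin was shOgdh346 (clones 1 and 5) or shOgdh2081 (clones 3 and 5), both directed against Ogdh, or the control shRen713 (clones 2 and 7). Cells were sampled after 4 days of doxycycline (day 4) and untreated (day 0), in RPMI medium with serum, and no group was labelled as kept at low oxygen. Each clone and day had a replicate 1 and a replicate 2 library, which makes 24 libraries in 6 groups of 4. All groups share the fusion, the Nras allele, the vector type and the culture medium. A hairpin is represented by 2 clones of 1 line, so the p-values below describe the spread between these clones and libraries. The labels do not say what the replicate number stands for, nor whether the libraries of a pair came from separate cultures.

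HIF is a transcription factor made of an oxygen-regulated alpha subunit, here Hif1a, and a stable partner. At normal oxygen, EGLN enzymes hydroxylate prolines of the alpha subunit, VHL binds the hydroxylated form, and the protein is degraded by the proteasome. The EGLN enzymes need oxygen, iron and 2-oxoglutarate, the substrate of the enzyme that Ogdh encodes. Most control of the alpha subunit is on the protein, which RNA counts do not measure. The targets code for an angiogenic ligand (Vegfa), mitochondrial outer-membrane receptors for mitophagy (Bnip3, Bnip3l), a stress-response protein (Ndrg1), a mitochondrial adenylate kinase (Ak4) and an ankyrin-repeat protein (Ankrd37). HIF binds DNA at a short core, RCGTG, which reads ACGTG or GCGTG.

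The 250 bases before a start listed by RefSeq were searched for ACGTG and GCGTG on both strands, with overlapping matches counted, in the windows of build GRCm38.p6. That start need not be the end of the gene in the deposited table: the Hif1a and Ankrd37 windows, the second Vegfa window and the fourth Ak4 window lie inside the deposited span of their gene. A window was found for 8 of the 10 genes, and 7 of these 8 had a match in at least 1 window. Ak4 and Vegfa had more than 1 window, so this count per gene is unlike the shares per window that follow. The share of all genes with a match in any window was not counted. Of all 32851 windows in the RefSeq table, 38.6% held at least 1 match, 16.7% at least 2, 2.58% at least 4 and 1.01% at least 5. The windows of the 3 genes whose levels differed most between groups or between replicate libraries are shown. Matches are in capitals, and neighbouring matches run together where they overlap.
Bnip3: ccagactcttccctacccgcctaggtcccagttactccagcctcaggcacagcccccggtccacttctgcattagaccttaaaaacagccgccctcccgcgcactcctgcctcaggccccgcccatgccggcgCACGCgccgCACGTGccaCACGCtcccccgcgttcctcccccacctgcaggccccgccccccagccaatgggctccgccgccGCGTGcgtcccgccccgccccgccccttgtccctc
Ak4: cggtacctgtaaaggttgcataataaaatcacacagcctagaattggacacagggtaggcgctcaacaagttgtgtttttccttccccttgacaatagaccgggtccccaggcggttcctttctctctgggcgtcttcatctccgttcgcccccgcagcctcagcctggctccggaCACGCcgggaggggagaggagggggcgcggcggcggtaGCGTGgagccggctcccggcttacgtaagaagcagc
Ankrd37: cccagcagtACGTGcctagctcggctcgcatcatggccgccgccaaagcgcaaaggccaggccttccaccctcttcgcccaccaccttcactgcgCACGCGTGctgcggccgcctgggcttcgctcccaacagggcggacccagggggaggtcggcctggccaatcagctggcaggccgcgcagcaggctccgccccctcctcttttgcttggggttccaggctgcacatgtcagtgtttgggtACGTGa
The Bnip3 window (chr7:138909507-138909756, minus strand) held 5 matches, at 117, 108, 107, 99 and 35 bases before the RefSeq start. The Ak4 window (chr4:101419039-101419288, plus strand), the first of 4 for this gene, held 2 matches, at 74 and 36 bases before the RefSeq start. The Ankrd37 window (chr8:45999851-46000100, minus strand) held 4 matches, at 241, 155, 152 and 6 bases before the RefSeq start, which lies inside the deposited span of the gene. Hif1a had 3 matches, Egln1 had 2 and Egln3 had 1. Vegfa had 0 matches in its first window and 2 in a second, and Vhl had 0. A match is a run of letters and was not tested for binding.

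Libraries held 7209186 to 20705468 counts, with 16876 to 20657 genes detected. Levels are given as CPM, counts per 1000000 of the TMM-scaled library size. Changes are log2 values ± their standard errors. The p-values come from the quasi-likelihood test of edgeR, adjusted by Benjamini-Hochberg over all genes tested, and a gene was called where its adjusted p was under 0.05. For tests between hairpins, counts were summed over the pair of libraries that a clone had on a day. The target checked the hairpins: Ogdh ranged from 32.3 to 70.9 CPM in the 8 Ogdh-hairpin libraries at day 4, against 206 to 253 CPM in the 4 control libraries. At day 0, before induction, 7 of the 8 Ogdh-hairpin libraries were also below all 4 control libraries, at 126 to 235 CPM against 202 to 250 CPM. The markers of the cells also moved. Summed CPM of 12 neutrophil maturation genes ran from 19375 to 44431 with shOgdh346 and from 7090 to 12715 with shOgdh2081 at day 4, against 413 to 1482 in the control. Summed CPM of 10 leukaemia progenitor genes ran from 3929 to 4156 with shOgdh346 and from 4760 to 7663 with shOgdh2081 at day 4, against 10522 to 11434 in the control. By the net change defined below, 10 of the 12 neutrophil genes rose, and of the 10 progenitor genes 6 fell and 2 rose. Of 8 markers of other cells, 3 were tested, and Cd3e and Alb had no counts in any group. The connective tissue collagen gene Col1a1 rose by the net change (5.56 ± 1.25, adjusted p = 0.00788), at 1.73 to 1.92 CPM with shOgdh346 and 0.609 to 1.06 CPM with shOgdh2081 at day 4, against 0 to 0.105 CPM in the control. The epithelial gene Epcam was higher than the control in the day 4 level (4.49 ± 1.08, adjusted p = 0.0117) but was not called for the net change, at 0.328 to 0.897 CPM with shOgdh346 and 0.528 to 1.78 CPM with shOgdh2081, against 0 to 0.105 CPM in the control. Both were low, with at most 28 counts a library, so these changes depend on the prior count. In bulk RNA, fewer cells of a type and less RNA per cell cannot be told apart, and the part of these markers in the results below was not tested.

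Of the 10 genes, 8 rose more over 4 days with the Ogdh hairpins than with the control, by what is called the net change (day 4 minus day 0 change of the Ogdh hairpins, averaged, minus that of the control). The 8 were Hif1a, Vhl and all 6 targets, and 0 were called lower. Among all 14249 genes tested, 17.9% were called higher in this comparison and 19.8% lower. The median net change over the 10 genes was 0.48, against -0.00201 over all genes tested. Ak4 had the highest estimate, 3.53 ± 0.39 (adjusted p = 0.000298), followed by Ankrd37 at 2.20 ± 0.38 (adjusted p = 0.00230) and Ndrg1 at 1.05 ± 0.15 (adjusted p = 0.000922). Neither prolyl hydroxylase gene was called, with Egln1 at 0.13 ± 0.11 (adjusted p = 0.375) and Egln3 at -0.03 ± 0.14 (adjusted p = 0.896). Unadjusted p was under 0.05 for 8 of the 10 genes higher and 0 lower, against 3214 higher and 3480 lower of all 14249 genes. DESeq2 called 8 of the 10 higher and 0 lower, and 4249 of all genes in either direction. The count of 8 was 3 when the clone block was left out, 5 when day 0 was taken from the replicate 1 libraries alone, 5 without control clone 2 and 4 without control clone 7. A fit without a control clone rests on 1 control clone, and its calls over all genes fell as well, to 2392 without clone 2 and 2084 without clone 7, against 5367 with both.

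**Figure D1:**
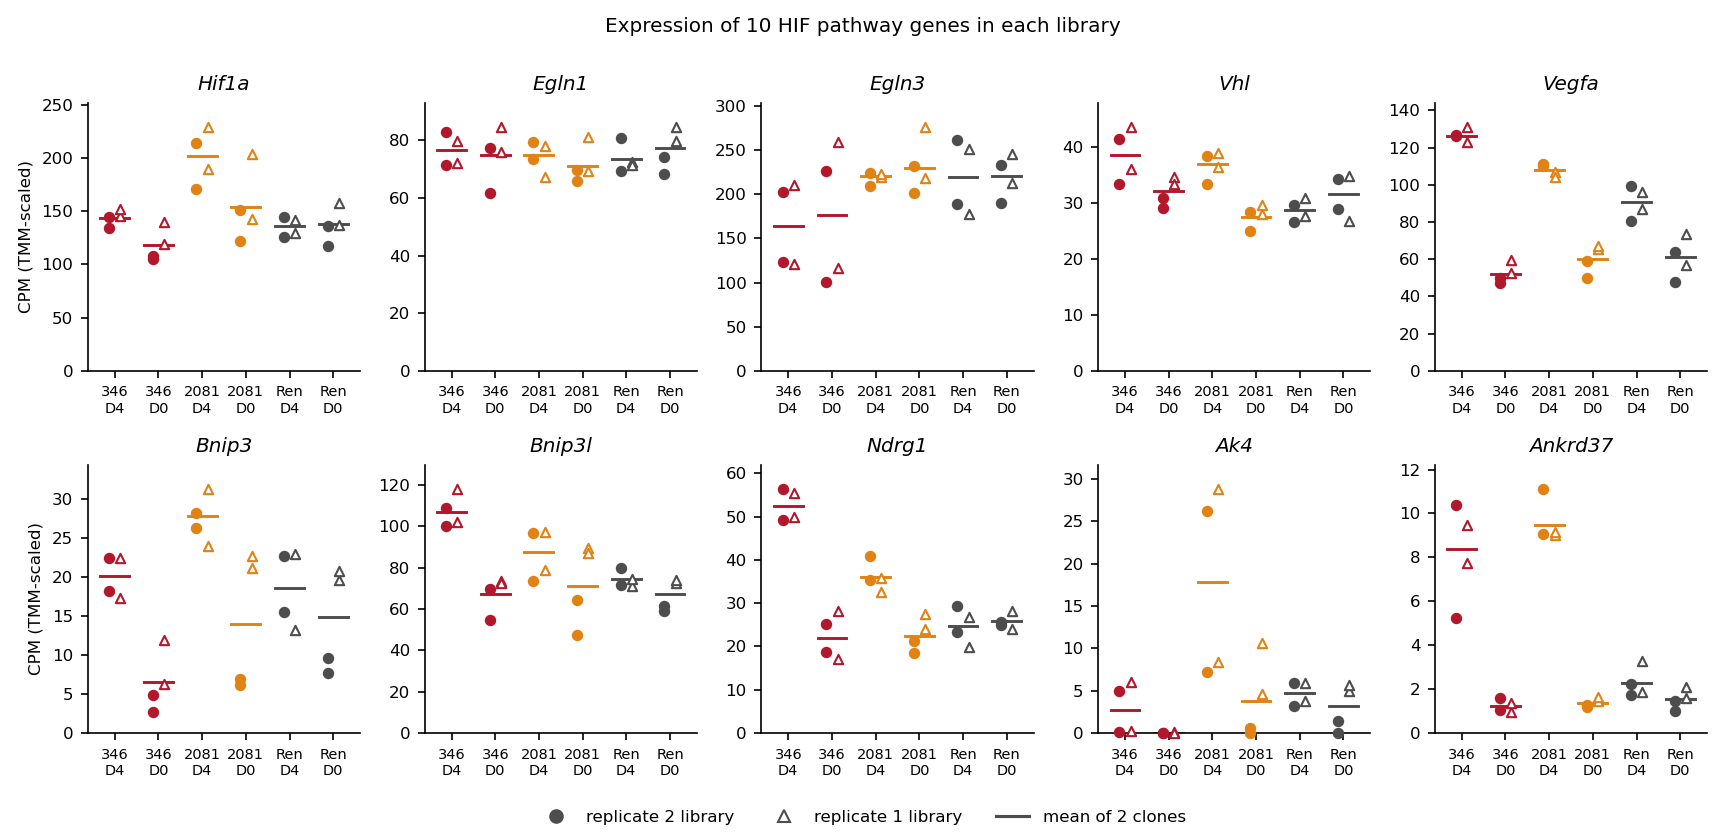
Level of each of the 10 genes in every library (y axis, CPM) by hairpin and day (x axis). Each symbol is 1 library, filled circles for replicate 2 and open triangles for replicate 1, and lines mark the mean of 2 clones. Vegfa, Ndrg1, Vhl and Ankrd37 lie above all 4 control libraries in 8 of 8 Ogdh-hairpin libraries at day 4. The share of all genes that separate in this way was not counted.

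Hif1a (ENSMUSG00000021109, GRCm38 chromosome 12, 73901375 to 73947530, plus strand) encodes the oxygen-regulated subunit of HIF-1. In the values that follow, each clone's pair is its replicate 2 library and its replicate 1 library, and clones are in the order of their numbers. Hif1a had 134, 146, 145 and 152 CPM in shOgdh346 libraries at day 4, against 105, 119, 108 and 140 CPM at day 0. Hif1a measured 214, 229, 171 and 190 CPM in shOgdh2081 libraries at day 4, against 151, 204, 122 and 143 CPM at day 0. Hif1a stood at 145, 142, 126 and 130 CPM in control libraries at day 4, against 136, 158, 117 and 137 CPM at day 0. The levels overlapped between days with each hairpin and between hairpins at day 4, where 6 of 8 Ogdh-hairpin libraries were above all 4 control libraries. Such counts of libraries, here and for the genes below, describe single genes. The share of all genes that separate alike was not counted, and both libraries of a clone enter. The day 4 minus day 0 change was 0.28 ± 0.07 (adjusted p = 0.00653) with shOgdh346 and 0.40 ± 0.07 (adjusted p = 0.00118) with shOgdh2081, against -0.02 ± 0.07 (adjusted p = 0.882) in the control. The net change was 0.37 ± 0.09 (adjusted p = 0.00911). The value was 0.36 without the clone block (adjusted p = 0.197), 0.305 against day 0 replicate 1 alone (adjusted p = 0.0517), 0.35 without control clone 2 and 0.36 without control clone 7 (adjusted p = 0.134 each), so the call was lost in these fits while the estimate moved by less than its standard error. An antisense gene, Gm15283, overlaps Hif1a and had 1 to 30 counts a library.

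Egln1 (chromosome 8, 124908587 to 124949324, minus strand) encodes PHD2, the main prolyl hydroxylase acting on HIF at normal oxygen. Its libraries ranged from 71.5 to 82.9 CPM with shOgdh346 and from 67.3 to 79.3 CPM with shOgdh2081 at day 4, against 69.4 to 80.6 CPM in the control at day 4. At day 0 they ranged from 61.8 to 84.5 CPM with shOgdh346 and from 65.9 to 81.0 CPM with shOgdh2081, against 68.4 to 84.5 CPM in the control. The 6 groups overlapped, and no day 4 minus day 0 change was called, with 0.03 ± 0.09 (adjusted p = 0.770) for shOgdh346, 0.07 ± 0.09 (adjusted p = 0.501) for shOgdh2081 and -0.07 ± 0.09 (adjusted p = 0.646) for the control.

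Egln3 (chromosome 12, 54178981 to 54203860, minus strand) encodes PHD3, a prolyl hydroxylase that is itself a HIF target in many cells. Egln3 had 123, 121, 203 and 210 CPM in shOgdh346 libraries at day 4, against 101, 116, 226 and 259 CPM at day 0. Egln3 measured 209, 220, 224 and 223 CPM in shOgdh2081 libraries at day 4, against 232, 276, 202 and 218 CPM at day 0. Egln3 stood at 189, 178, 262 and 251 CPM in control libraries at day 4, against 190, 213, 233 and 246 CPM at day 0. The lowest values were those of shOgdh346 clone 1 at both days, and both libraries of a clone lay closer together than the shOgdh346 clones did. Its day 4 minus day 0 change was -0.04 ± 0.11 (adjusted p = 0.764) with shOgdh346 and -0.05 ± 0.11 (adjusted p = 0.705) with shOgdh2081, against -0.02 ± 0.11 (adjusted p = 0.940) in the control, and none was called.

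Vhl (chromosome 6, 113623959 to 113631633, plus strand) encodes the subunit of the ubiquitin ligase that recognises hydroxylated HIF alpha. Vhl had 41.4, 43.6, 33.4 and 36.1 CPM in shOgdh346 libraries at day 4, against 30.9, 34.7, 29.2 and 33.5 CPM at day 0. Vhl measured 38.5, 39.0, 33.4 and 36.5 CPM in shOgdh2081 libraries at day 4, against 25, 29.6, 28.5 and 28.1 CPM at day 0. Vhl stood at 29.7, 27.8, 26.6 and 30.9 CPM in control libraries at day 4, against 34.4, 26.9, 28.9 and 34.8 CPM at day 0. All 8 Ogdh-hairpin libraries were above the 4 control libraries at day 4, while at day 0 none was. The mean level was 37.8 ± 3.24 CPM in the 4 Ogdh-hairpin clones and 28.8 ± 0.124 CPM in the 2 control clones at day 4 (SD over clones). The net change was 0.48 ± 0.12 (adjusted p = 0.0129), the change was 0.26 ± 0.10 (adjusted p = 0.0439) with shOgdh346 and 0.42 ± 0.10 (adjusted p = 0.00586) with shOgdh2081, and the control gave -0.14 ± 0.10 (adjusted p = 0.424). The call of the net change was lost against day 0 replicate 1 alone (0.36, adjusted p = 0.0966), without control clone 2 (0.505, adjusted p = 0.107), without control clone 7 (0.43, adjusted p = 0.172), and without the day 0 replicate 2 library of control clone 2 (0.39, adjusted p = 0.0558).

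Vegfa (chromosome 17, 46016993 to 46032369, minus strand) encodes vascular endothelial growth factor A, a secreted ligand of endothelial receptors. Vegfa had 126, 131, 127 and 123 CPM in shOgdh346 libraries at day 4, against 50, 52.5, 47.3 and 59.7 CPM at day 0. Vegfa measured 111, 107, 110 and 104 CPM in shOgdh2081 libraries at day 4, against 59.0, 65.3, 50.2 and 67.1 CPM at day 0. Vegfa stood at 80.8, 87.0, 99.3 and 95.9 CPM in control libraries at day 4, against 48.0, 56.8, 63.7 and 73.7 CPM at day 0. Every library was higher at day 4 than all day 0 libraries of its hairpin, the control included. At day 4 all 8 Ogdh-hairpin libraries were also above the 4 control libraries. The change was 1.27 ± 0.08 (adjusted p = 4.65e-06) with shOgdh346 and 0.85 ± 0.08 (adjusted p = 5.31e-05) with shOgdh2081, against 0.58 ± 0.08 (adjusted p = 0.00608) in the control, where it was the only one of the 10 genes called. The net change was 0.48 ± 0.10 (adjusted p = 0.00474), with the call lost without the clone block (adjusted p = 0.0635) and without control clone 7 (0.138).

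Bnip3 (chromosome 7, 138890836 to 138909519, minus strand) encodes a mitochondrial outer-membrane protein that recruits the autophagy machinery. Its promoter window, shown above, held the most matches of the 8 genes with a window. Bnip3 had 18.2, 17.3, 22.4 and 22.4 CPM in shOgdh346 libraries at day 4, against 2.75, 6.22, 4.82 and 11.9 CPM at day 0. Bnip3 measured 28.2, 31.2, 26.3 and 24 CPM in shOgdh2081 libraries at day 4, against 6.16, 22.7, 6.90 and 21.1 CPM at day 0. Bnip3 stood at 15.5, 13.2, 22.6 and 22.9 CPM in control libraries at day 4, against 7.69, 19.6, 9.56 and 20.7 CPM at day 0. With shOgdh346 every day 4 library was above every day 0 library, and with shOgdh2081 likewise, but day 0 values within a clone were far apart. At day 4, 4 of 8 Ogdh-hairpin libraries were above all control libraries. The change was 1.65 ± 0.15 (adjusted p = 2.91e-05) with shOgdh346 and 0.98 ± 0.14 (adjusted p = 0.000475) with shOgdh2081, against 0.30 ± 0.14 (adjusted p = 0.244) in the control, and the net change was 1.01 ± 0.18 (adjusted p = 0.00243). The net call was lost without the clone block (adjusted p = 0.0685). It was also lost without the day 0 replicate 1 library of control clone 7, where the value was 0.68 (adjusted p = 0.105).

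Bnip3l (chromosome 14, 66985239 to 67008877, minus strand) encodes NIX, a related receptor known for clearing mitochondria from maturing red cells. Bnip3l had 109, 118, 100 and 102 CPM in shOgdh346 libraries at day 4, against 69.8, 73.4, 54.7 and 72.4 CPM at day 0. Bnip3l measured 73.8, 79.1, 96.9 and 97.1 CPM in shOgdh2081 libraries at day 4, against 47.4, 89.7, 64.2 and 87.3 CPM at day 0. Bnip3l stood at 71.8, 71.4, 80.1 and 74.5 CPM in control libraries at day 4, against 61.5, 72.4, 59.0 and 73.9 CPM at day 0. The shOgdh346 libraries at day 4 were all above those of the control, while those of shOgdh2081 clone 3 overlapped them. The change was 0.67 ± 0.08 (adjusted p = 8.97e-05) with shOgdh346 and 0.29 ± 0.08 (adjusted p = 0.0110) with shOgdh2081, against 0.14 ± 0.08 (adjusted p = 0.302) in the control. The net change was 0.34 ± 0.09 (adjusted p = 0.0203), and its call was lost in 9 of 36 alternative fits. These were the fit with no filter on low counts (adjusted p = 0.0625), no clone block (0.34, adjusted p = 0.170), day 0 replicate 1 alone (0.23, adjusted p = 0.193), and those without control clone 2 (0.29, adjusted p = 0.232) or control clone 7 (0.365, adjusted p = 0.145). The others left out the day 0 replicate 1 library of control clone 2 (adjusted p = 0.0557) or control clone 7 (0.133), or the day 0 replicate 2 library of shOgdh346 clone 5 (0.0511) or shOgdh2081 clone 3 (0.248). A processed copy, Bnip3l-ps, had 1 to 16 counts a library.

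Ndrg1 (chromosome 15, 66929321 to 66969640, minus strand) encodes a cytoplasmic protein induced by hypoxia, iron loss and differentiation in many cell types. Ndrg1 had 49.2, 50, 56.3 and 55.4 CPM in shOgdh346 libraries at day 4, against 18.8, 17, 25.1 and 28.1 CPM at day 0. Ndrg1 measured 40.8, 35.9, 35.4 and 32.5 CPM in shOgdh2081 libraries at day 4, against 18.4, 27.4, 21.2 and 24.1 CPM at day 0. Ndrg1 stood at 23.4, 19.9, 29.3 and 26.7 CPM in control libraries at day 4, against 25, 24, 25.7 and 28.1 CPM at day 0. Day 4 libraries of both Ogdh hairpins were above all their day 0 libraries and above all control libraries, and control libraries overlapped between days. The change was 1.28 ± 0.12 (adjusted p = 3.20e-05) with shOgdh346 and 0.67 ± 0.12 (adjusted p = 0.00154) with shOgdh2081, against -0.07 ± 0.12 (adjusted p = 0.790) in the control. The net change of 1.05 ± 0.15 kept its call in all 36 alternative fits, with values of 0.92 to 1.15 and adjusted p up to 0.0218.

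Ak4 (chromosome 4, 101419277 to 101466995, plus strand) encodes a mitochondrial matrix adenylate kinase. Ak4 had 5.02, 6.02, 0.110 and 0.200 CPM in shOgdh346 libraries at day 4, against 0, 0.108, 0 and 0 CPM at day 0. Ak4 measured 26.2, 28.8, 7.17 and 8.36 CPM in shOgdh2081 libraries at day 4, against 0.571, 10.6, 0 and 4.62 CPM at day 0. Ak4 stood at 3.22, 3.78, 5.88 and 5.94 CPM in control libraries at day 4, against 0, 5.00, 1.47 and 5.66 CPM at day 0. With shOgdh346 the day 4 reads came almost wholly from clone 1: clone 5 had 4 counts at day 4, against 0 at day 0, where 0 allows up to 3. Over the group, shOgdh346 had 109 counts at day 4 and 2 at day 0, a ratio of 55.0 after scaling (95% interval 14.9 to 460, counting error only). With shOgdh2081 there were 970 counts at day 4 and 142 at day 0, a ratio of 5.86 (4.91 to 7.04), and in the control 175 at day 4 and 122 at day 0, a ratio of 1.39 (1.10 to 1.77). The fitted net change of 3.53 ± 0.39 depends on the prior count where a group has so few reads. Its call was lost without the clone block (adjusted p = 0.179), against day 0 replicate 2 alone (0.0744), without shOgdh346 clone 1 (0.0801), and without the day 0 replicate 1 library of control clone 2 (0.0947).

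Ankrd37 (chromosome 8, 45996902 to 46005707, minus strand) encodes a small ankyrin-repeat protein and is a HIF target in human cells. Ankrd37 had 10.4, 9.49, 5.26 and 7.72 CPM in shOgdh346 libraries at day 4, against 1.03, 0.974, 1.61 and 1.35 CPM at day 0. Ankrd37 measured 11.1, 9.04, 9.05 and 9.16 CPM in shOgdh2081 libraries at day 4, against 1.26, 1.45, 1.17 and 1.62 CPM at day 0. Ankrd37 stood at 2.22, 1.89, 1.73 and 3.29 CPM in control libraries at day 4, against 1.01, 2.08, 1.47 and 1.61 CPM at day 0. All 8 Ogdh-hairpin libraries at day 4 were above every other library. The mean level was 8.92 ± 1.45 CPM in the 4 Ogdh-hairpin clones and 2.30 ± 0.347 CPM in the 2 control clones at day 4 (SD over clones). The change was 2.79 ± 0.28 (adjusted p = 4.76e-05) with shOgdh346 and 2.78 ± 0.28 (adjusted p = 7.41e-05) with shOgdh2081, against 0.58 ± 0.32 (adjusted p = 0.296) in the control. Its net change of 2.20 ± 0.38 kept its call in all 36 alternative fits, with values of 1.88 to 2.48 and adjusted p up to 0.0262. Ankrd37 overlaps Ufsp2 on the opposite strand, which had 439 to 1525 counts a library and a net change of -0.34 (adjusted p = 0.0209). Since the strand setting of the counting is not stated, reads of the overlap could have been assigned to either gene or dropped, and the level of Ankrd37 is uncertain.

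Taken by hairpin, 7 of the 10 genes were called higher than the control with shOgdh346 and 6 with shOgdh2081, against 16.4% and 13.6% of all genes tested. The hairpins are set against the same control libraries, so these counts are not independent. Called with both were Hif1a, Bnip3, Ndrg1, Ak4 and Ankrd37, and the share of all genes called with both was not counted. Not all of these 5 were above the control in the day 4 level alone, as given below. Vegfa was 0.69 ± 0.11 (adjusted p = 0.00185) with shOgdh346 and 0.27 ± 0.11 (adjusted p = 0.106) with shOgdh2081, and Bnip3l was 0.53 ± 0.11 (adjusted p = 0.00574) with shOgdh346 and 0.15 ± 0.11 (adjusted p = 0.339) with shOgdh2081. Vhl was 0.40 ± 0.14 (adjusted p = 0.0512) with shOgdh346 and 0.56 ± 0.14 (adjusted p = 0.0172) with shOgdh2081. The difference itself (shOgdh346 change minus shOgdh2081 change) was called by edgeR for 0 of the 10 genes and for 0.105% of all genes tested in either direction. Unadjusted p was under 0.05 for 5 of the 10 genes, against 1421 of the 14249 genes tested. DESeq2 called 1 of the 10, Ak4 (adjusted p = 0.0363), and 103 of all genes. For those 5 the estimated change over time was larger with shOgdh346. The differences were Vegfa 0.42 ± 0.11 (adjusted p = 0.257), Bnip3 0.66 ± 0.21 (adjusted p = 0.346), Bnip3l 0.38 ± 0.11 (adjusted p = 0.294), Ndrg1 0.61 ± 0.17 (adjusted p = 0.280) and Ak4 3.95 ± 0.65 (adjusted p = 0.0772). The Ak4 difference was also called with no filter on low counts (adjusted p = 6.62e-07), against day 0 replicate 1 alone (0.0268) and without the day 0 replicate 2 library of shOgdh2081 clone 3 (0.0249). At day 4 itself, Bnip3 averaged 20.1 CPM with shOgdh346 against 27.8 CPM with shOgdh2081, and Ak4 2.77 against 17.8 CPM. Both also started lower with shOgdh346. By clone, Bnip3 at day 0 was 5.08 to 7.95 CPM against 13.8 to 14.3 CPM. Ak4 was 0 to 0.0732 CPM against 2.41 to 5.19 CPM. Vegfa, Bnip3l and Ndrg1 were higher on average with shOgdh346 at day 4. These levels were not tested between the Ogdh hairpins. Neutrophil marker levels at day 4 were higher with shOgdh346 than with shOgdh2081, with no overlap between libraries, and the part of these markers was not tested. The shOgdh2081 count of 6 fell to 2 against day 0 replicate 1 alone, while calls over all genes stayed within 1.5 times of 3958. Without the clone block the count of 6 fell to 1, and calls over all genes fell as well, from 3958 to 1212. The count also fell without either control clone and without shOgdh2081 clone 3, fits that leave 1 clone of that hairpin. Calls over all genes fell without either control clone as well. Of 36 alternative fits, the shOgdh346 call of Hif1a was lost in 15, and the shOgdh2081 calls of Bnip3 in 13 and of Ak4 in 9.

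Within each hairpin, day 4 against day 0, 8 of the 10 genes rose with shOgdh346 and the same number with shOgdh2081, against 30.2% and 27.5% of all genes tested called higher. In both cases the 8 were Hif1a, Vhl and the 6 targets. Without shOgdh346 clone 1 the shOgdh346 count was 5, and without the clone block the shOgdh2081 count was 5. Ak4 with shOgdh346 lost its call without clone 1 (adjusted p = 0.125), and so did Hif1a (0.0506), which also lost it without the day 0 replicate 2 library of clone 5 (0.0647). Vhl lost its shOgdh346 call in 20 of 36 alternative fits, DESeq2 among them (adjusted p = 0.0956), and its shOgdh2081 call without clone 3 (0.0765). Bnip3l with shOgdh2081 lost its call without clone 5 (adjusted p = 0.114) or without the day 0 replicate 2 library of clone 3 (0.585) or clone 5 (0.0637). In the control 1 gene rose, Vegfa, against 4.44% of all genes. That call was lost without the clone block (adjusted p = 0.0887), without control clone 2 (0.242) and without control clone 7 (0.127).

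**Figure D2:**
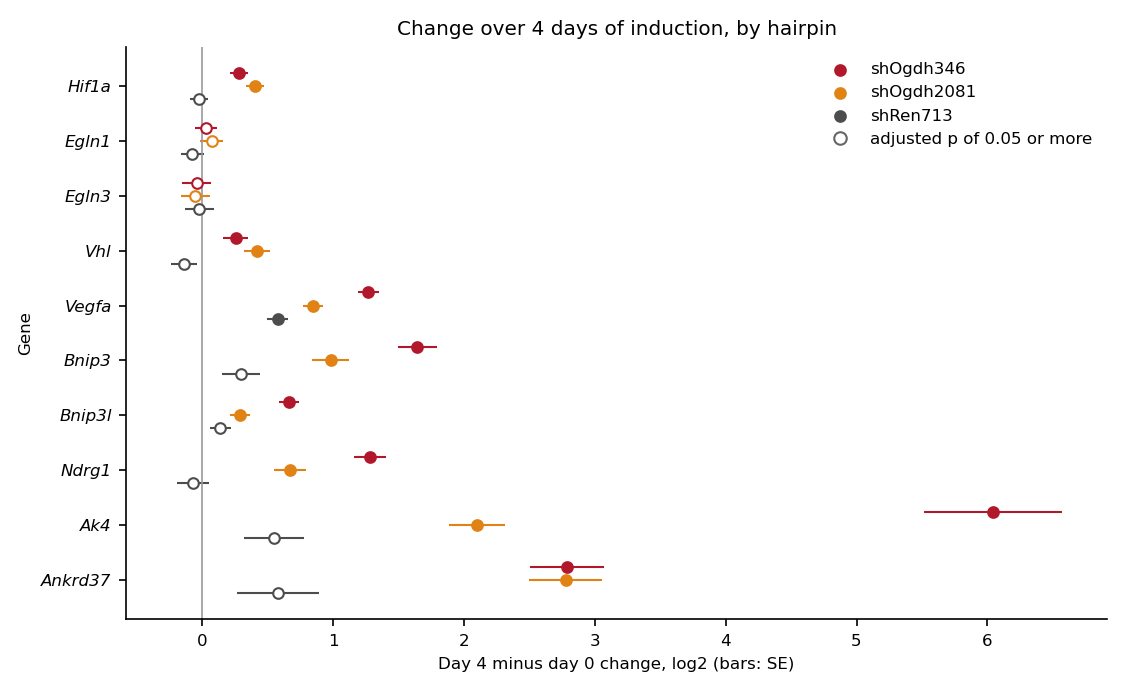
Day 4 minus day 0 change (log2 CPM, x axis) of the 10 genes (y axis) with shOgdh346, shOgdh2081 and the control hairpin. Points are fitted changes, open where adjusted p was 0.05 or more, and bars their standard errors. Egln1 and Egln3 lie near 0 for all hairpins, and the points of the 6 targets lie above the control for both Ogdh hairpins. Against the control, Vegfa and Bnip3l were not called with shOgdh2081.

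Set against the control at day 4 alone, 5 of the 10 genes were higher with the Ogdh hairpins, against 17.5% of all genes tested. These were Vhl at 0.39 ± 0.09 (adjusted p = 0.0121), Vegfa at 0.36 ± 0.11 (adjusted p = 0.0346), Bnip3l at 0.38 ± 0.11 (adjusted p = 0.0301), Ndrg1 at 0.81 ± 0.18 (adjusted p = 0.00752) and Ankrd37 at 1.95 ± 0.26 (adjusted p = 0.000853). Hif1a (0.33 ± 0.13, adjusted p = 0.0774), Bnip3 (0.35 ± 0.23, adjusted p = 0.273) and Ak4 (0.57 ± 1.04, adjusted p = 0.693) were called for the net change but not for the day 4 level. This count fell without either control clone, as calls over all genes did, and without shOgdh346 clone 1. Each of these fits leaves 1 clone of that hairpin. The calls of Vegfa and Bnip3l were each lost in 8 alternatives, while Hif1a passed in 5. With shOgdh346 alone against the control at day 4, Hif1a (0.08 ± 0.15, adjusted p = 0.698), Bnip3 (0.11 ± 0.27, 0.774) and Ak4 (-0.77 ± 1.20, 0.646) were not called. Ndrg1 (1.08 ± 0.20, 0.00398) and Ankrd37 (1.86 ± 0.28, 0.00177) were called there. With shOgdh2081 alone, Hif1a (0.57 ± 0.15, 0.0221) and Ankrd37 (2.04 ± 0.28, 0.00225) were called. Bnip3 (0.137), Ndrg1 (0.0723) and Ak4 (0.266) were not. At day 0, before induction, edgeR called 0.00% of all genes and 0 of the 10 in either direction. At an unadjusted p under 0.05 there were 272 of all genes, and of the 10 Bnip3 (-0.64 ± 0.23, adjusted p = 1.00) and Ak4 (-2.89 ± 1.21, adjusted p = 1.00) were lower in the Ogdh-hairpin clones. DESeq2 called 2 genes of all and 0 of the 10. With shOgdh346 alone against the control at day 0, edgeR again called 0.00% of all genes and 0 of the 10, with unadjusted p under 0.05 for 548 genes. Of the 10, Bnip3 (-1.20 ± 0.28, unadjusted p = 0.00208) and Ak4 (-6.01 ± 1.80, unadjusted p = 0.0101) were among these, each with an adjusted p of 1.00. DESeq2 called 24 genes there, Ak4 among them (-6.25, adjusted p = 0.0383), and edgeR with no filter on low counts called Bnip3 (-1.20, adjusted p = 0.0106). These day 0 levels enter the shOgdh346 changes of both genes. Bnip3 at day 0 was 6.52 ± 2.03 CPM in the shOgdh346 clones and 14 ± 0.315 CPM in the shOgdh2081 clones, against 14.9 ± 2.19 CPM in the control clones (SD, n = 2 clones each). Hif1a at day 0 was 118 ± 5.95 CPM in the shOgdh346 clones, against 138 ± 11.4 CPM in the control clones. That difference (log2 -0.22 ± 0.15) was not called, and it also enters the shOgdh346 change of Hif1a.

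The replicate 2 and replicate 1 libraries of a clone differed at day 0. Of the 10 genes, 7 were lower in replicate 2 and 0 were higher, against 22% of all 11684 genes tested called lower and 21.6% called higher. The count of 7 was 2 when the clone block was left out, and calls over all genes in either direction fell as well, from 5092 to 2019. Bnip3 was lower in 6 of 6 clones. Its replicate 2 level was 2.75 and 4.82 CPM in shOgdh346 clones 1 and 5, 6.16 and 6.90 CPM in shOgdh2081 clones 3 and 5, and 7.69 and 9.56 CPM in control clones 2 and 7. Its replicate 1 level in the same clones was 6.22 and 11.9 CPM with shOgdh346, 22.7 and 21.1 CPM with shOgdh2081, and 19.6 and 20.7 CPM with the control hairpin. The fitted difference, replicate 2 minus replicate 1, was -1.43 ± 0.10 (adjusted p = 1.91e-11). Clone by clone it ran from -1.88 to -1.18 in the 4 Ogdh-hairpin clones and was -1.35 and -1.11 in the 2 control clones.

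Ak4 had 17 counts in the 6 replicate 2 libraries and 249 in the 6 replicate 1 libraries at day 0, a ratio of 0.0834 after scaling (95% interval 0.0478 to 0.136, counting error only). It was lower in both control clones and both shOgdh2081 clones. The shOgdh346 clones had too few counts to tell: clone 1 had 0 counts in replicate 2 and 2 in replicate 1, clone 5 had 0 in both, and 0 allows up to 3 counts. Bnip3l averaged 59.4 ± 7.77 CPM in replicate 2 and 78.2 ± 8.05 CPM in replicate 1 libraries (SD, n = 6 clones), with a difference of -0.39 ± 0.11 (adjusted p = 0.0240) whose call was lost without control clone 7 (adjusted p = 0.0522), shOgdh346 clone 5 (0.0689) or shOgdh2081 clone 5 (0.0708). Vegfa averaged 53.0 ± 6.71 CPM in replicate 2 and 62.5 ± 7.68 CPM in replicate 1 libraries, with a difference of -0.24 ± 0.05 (adjusted p = 0.000202). Of the sensors, Egln1 (-0.19 ± 0.04, adjusted p = 0.000325) and Egln3 (-0.17 ± 0.03, adjusted p = 8.69e-05) were lower in 6 of 6 clones. Hif1a averaged 123 ± 17.5 CPM in replicate 2 and 150 ± 29.2 CPM in replicate 1 libraries, with a difference of -0.28 ± 0.04 (adjusted p = 9.26e-07). Vhl (-0.09 ± 0.07, adjusted p = 0.276), Ndrg1 (-0.14 ± 0.07, adjusted p = 0.128) and Ankrd37 (-0.25 ± 0.23, adjusted p = 0.401) were not called and were lower in 4 of 6 clones each.

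At day 4 the same comparison called 0 of the 10 genes, against 7.54% of all genes tested in either direction. Unadjusted p was under 0.05 for Hif1a, lower in replicate 2 at -0.08 ± 0.03 (adjusted p = 0.0774), and Ndrg1, higher at 0.10 ± 0.05 (adjusted p = 0.197). It was under 0.05 for 2565 of all genes. DESeq2 called 0 of the 10 and 311 of all genes. Bnip3 averaged 22.2 ± 4.77 CPM in replicate 2 and 21.8 ± 6.15 CPM in replicate 1 libraries at day 4 (SD, n = 6 clones). The replicate difference at day 4 minus that at day 0 was called higher for 8 of the 10 genes, against 14.2% of all 12652 genes tested. It was 1.44 ± 0.11 (adjusted p = 6.00e-15) for Bnip3, 3.53 ± 0.36 (adjusted p = 2.93e-09) for Ak4 and 0.36 ± 0.11 (adjusted p = 0.0291) for Bnip3l. Of 9 alternative fits chosen after seeing the data, the calls of Bnip3l and Ndrg1 (0.23 ± 0.08, adjusted p = 0.0284) were lost in 4 and 5, and the other 6 calls in 0. Over all genes, the pairs of libraries of a clone stood further apart at day 0, with a chi-square statistic of 6.78 to 10.3 per gene, than at day 4, with 1.60 to 2.94. Summed progenitor markers at day 0 ran from 5801 to 9349 CPM in replicate 2 and from 6589 to 10666 CPM in replicate 1 libraries, and summed neutrophil markers from 357 to 3238 CPM in replicate 2 and from 326 to 2105 CPM in replicate 1 libraries. The part of these in the replicate difference was not tested.

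**Figure D3:**
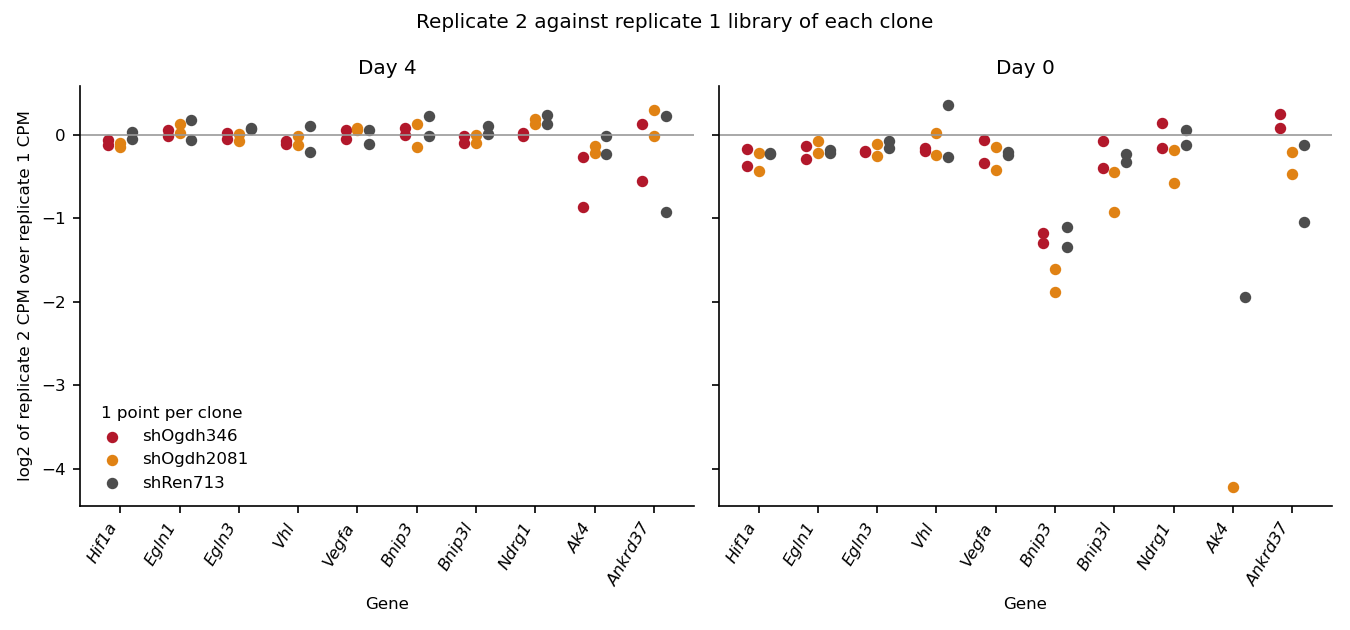
Replicate 2 minus replicate 1 difference of each clone (log2 CPM, y axis) for the 10 genes (x axis) at day 4 and at day 0. Each point is 1 clone, coloured by hairpin, and clones with no counts in a library have none. At day 0 Bnip3 lies below 0 in 6 of 6 clones, and at day 4 in 3 of 6.

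Because the day 0 libraries are the baseline of every change, each change was also computed against either day 0 replicate alone. Against replicate 2 alone, 8 of the 10 genes rose with shOgdh346, 8 with shOgdh2081 and 2 in the control, while 29.2%, 26.2% and 0.628% of all genes tested were called higher with shOgdh346, with shOgdh2081 and in the control. Against replicate 1 alone, 6 rose with shOgdh346, 6 with shOgdh2081 and 1 in the control, while 30.2%, 26.4% and 8.96% of all genes were called higher. So the control had more members called against replicate 2 and more genes called over all against replicate 1. For Bnip3 with shOgdh2081 the change was 2.08 (adjusted p = 7.96e-06) against replicate 2 and 0.34 (adjusted p = 0.121) against replicate 1. In the control the Bnip3 change was 1.09 (adjusted p = 0.0238) against replicate 2 and -0.11 (adjusted p = 0.723) against replicate 1. With shOgdh346 it was called in either case, at 2.45 against replicate 2 and 1.23 against replicate 1. Bnip3l with shOgdh2081 was 0.66 against replicate 2 and -0.02 (adjusted p = 0.885) against replicate 1, so its direction turned. Ak4 in the control was 2.71 (adjusted p = 0.133) against replicate 2 and -0.17 (adjusted p = 0.702) against replicate 1. With shOgdh346, Vegfa was 1.41 against replicate 2 and 1.18 against replicate 1, Ndrg1 1.31 and 1.28, and Ankrd37 2.67 and 2.98. With shOgdh2081, Vegfa was 1.00 against replicate 2 and 0.71 against replicate 1, Ndrg1 0.87 and 0.49, and Ankrd37 2.97 and 2.60, and all 6 of these changes were called against either replicate. Set against the control, Ndrg1 with shOgdh2081 was 0.91 (adjusted p = 0.00485) against replicate 2 and 0.545 (adjusted p = 0.0744) against replicate 1, where its call was lost. Ankrd37 with shOgdh346 was 1.78 (adjusted p = 0.0233) against replicate 2 and 2.60 (adjusted p = 0.00217) against replicate 1. The net change of Bnip3 was 1.18 (adjusted p = 0.00219) against replicate 2 and 0.90 (adjusted p = 0.00947) against replicate 1. The net calls of Hif1a, Vhl and Bnip3l were lost against replicate 1 alone, with adjusted p of 0.0517, 0.0966 and 0.193, and that of Ak4 against replicate 2 alone. Against either replicate, the number of all genes called for the net change stayed within 1.5 times of that with both.

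**Figure D4:**
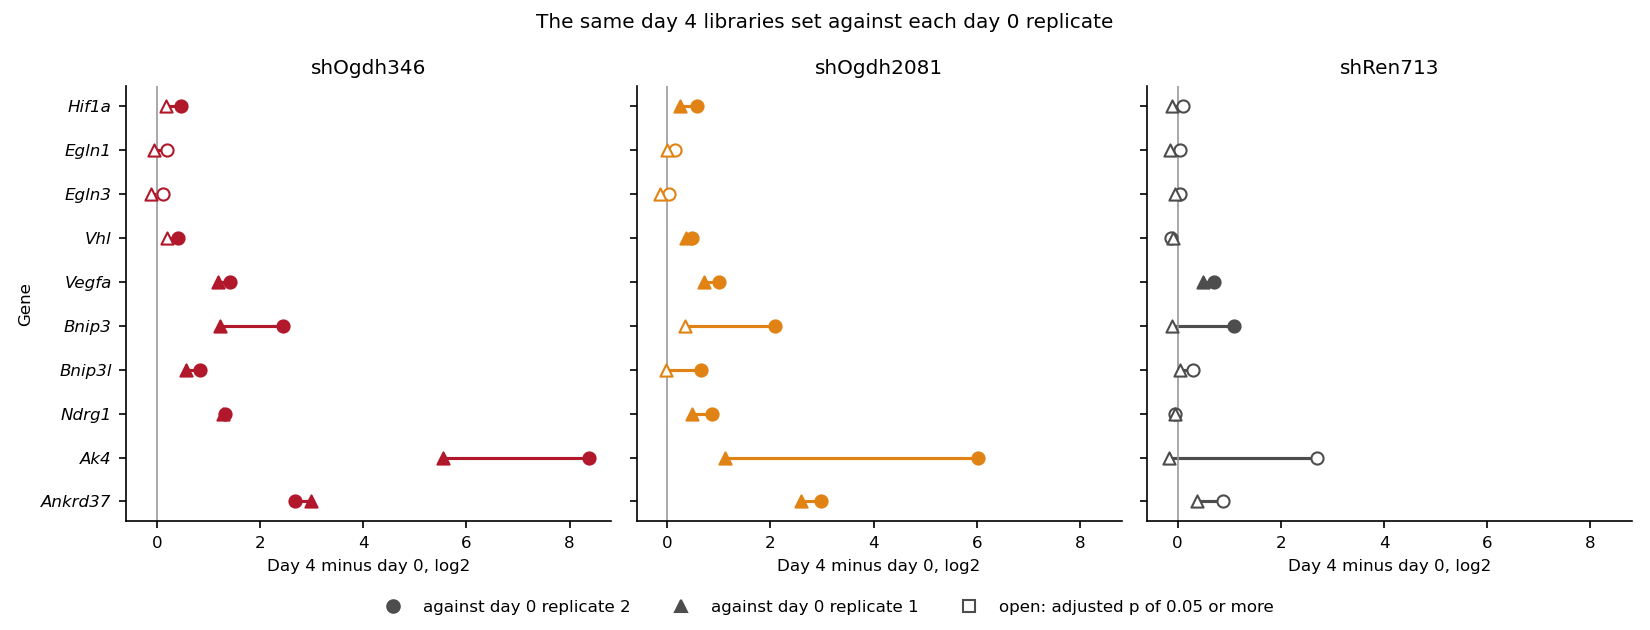
Day 4 minus day 0 change (log2, x axis) of the 10 genes (y axis) with each hairpin (panels), against day 0 replicate 2 (circles) or replicate 1 (triangles), open where adjusted p was 0.05 or more. Bnip3 and Ak4 shift most between the baselines, and Ndrg1 with shOgdh346 little.

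Other genes of the pathway were read from lists drawn up by role, with earlier results of these data known. In net change, 17.9% of all genes tested were called higher and 19.8% lower, with a median of -0.00201. Of 24 tested HIF targets outside glycolysis, 13 rose and 1 fell, with a median of 0.69. The target that fell was Stc2 (-0.51 ± 0.14, adjusted p = 0.0201). The median of these targets was the same with P4ha2 and Plod2, which had no counts in 1 group or more, set at their bound. The targets with the smallest p were Hmox1, heme oxygenase, at 2.60 ± 0.10 (adjusted p = 3.59e-06), Wsb1, a ubiquitin ligase subunit, at 0.86 ± 0.10 (adjusted p = 0.000359), Ddit4, an inhibitor of mTORC1, at 1.12 ± 0.14 (adjusted p = 0.000449), and Fam162a at 1.13 ± 0.15 (adjusted p = 0.000545). Of 20 glycolytic targets, 14 rose and 0 fell, with a median of 0.48. The glucose transporter genes Slc2a3 (5.07 ± 0.55, adjusted p = 0.000311) and Slc2a1 (1.20 ± 0.18, adjusted p = 0.00161), the lactate exporter gene Slc16a3 (1.96 ± 0.19, adjusted p = 0.000377) and Pfkfb3 (0.50 ± 0.08, adjusted p = 0.00188), which makes an activator of phosphofructokinase, had the smallest p. Slc2a3 had 21.5 to 284 CPM with shOgdh346 and 22.2 to 30.3 CPM with shOgdh2081 at day 4, against 0 to 0.844 CPM in the control. Hmox1 and several of these genes are also controlled by factors other than HIF.

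The counts of this paragraph are also to be read against the 17.9% of all genes called higher and the 19.8% called lower, and they include the members of each list. Of 11 tested sensing and degradation genes, Egln1, Egln3 and Vhl among them, 1 rose (Vhl) and 1 fell (Cul2, the scaffold of the VHL ligase, -0.26 ± 0.09 (adjusted p = 0.0459)), with a median of -0.10. A count of 1 among 11 genes is too small to place above or below the shares of all genes. Of 4 tested HIF subunit genes only Hif1a was called. Among VEGF ligands and receptors 4 of 6 rose and 1 fell. Besides Vegfa, those that rose were the receptor gene Flt1 (1.26 ± 0.21, adjusted p = 0.00347), the ligand gene Pgf (2.17 ± 0.41, adjusted p = 0.00360) and the co-receptor gene Nrp1 (4.61 ± 1.25, adjusted p = 0.0212), while the ligand gene Vegfb fell (-0.68 ± 0.19, adjusted p = 0.0194). Nrp1 had 4 counts in the 4 control libraries at day 4, so its change depends on the prior count. Among mitophagy genes 6 of 12 rose, Bnip3 and Bnip3l among them, and 1 fell. Gabarap (0.73 ± 0.10, adjusted p = 0.000593), Map1lc3a (1.29 ± 0.29, adjusted p = 0.00760) and Gabarapl2 (0.59 ± 0.14, adjusted p = 0.00898), which code for the membrane-bound proteins that such receptors bind, rose, and the prohibitin gene Phb2 fell (-0.63 ± 0.13, adjusted p = 0.00576). Of the NDRG family 2 of 4 rose, Ndrg1 and Ndrg4 (2.70 ± 0.85, adjusted p = 0.0332), the second from few counts. Of 6 adenylate kinase genes 2 rose, Ak4 and Ak8 (1.86 ± 0.49, adjusted p = 0.0160). Both had groups with few counts: Ak8 had 23 in the control at day 4, and Ak4 had 2 with shOgdh346 at day 0. These counts describe the lists and were not set against other lists.

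The same lists were read for the replicate difference at day 0. Of 20 glycolytic targets tested, 15 were lower in replicate 2 and 3 higher, with a median of -0.35, while 22% of all genes were called lower and 21.6% higher. Of 21 other targets, 15 were lower and 4 higher, with a median of -0.25, and the median of all genes tested was -0.00740. Pdk1, which inhibits pyruvate dehydrogenase, was at -0.78 ± 0.05 (adjusted p = 2.06e-12), the glycolytic gene Eno1 at -0.52 ± 0.03 (adjusted p = 2.83e-11), and Gapdh at -0.33 ± 0.03 (adjusted p = 3.01e-10). P4ha1, a collagen prolyl hydroxylase, was at -0.67 ± 0.05 (adjusted p = 6.39e-11), Stc2 at -0.62 ± 0.04 (adjusted p = 2.08e-11) and the transferrin receptor gene Tfrc at -0.26 ± 0.03 (adjusted p = 3.57e-07). Among the sensing genes 5 of 11 were lower and 1 higher. Besides Egln1 and Egln3, the lower ones were Siah2 (-0.50 ± 0.07, adjusted p = 2.17e-06), a ligase that targets EGLN proteins, Eloc (-0.21 ± 0.04, adjusted p = 5.65e-05) and Siah1a (-0.24 ± 0.08, adjusted p = 0.0187). Vegfb (-0.32 ± 0.08, adjusted p = 0.00163), Map1lc3b (-0.22 ± 0.04, adjusted p = 3.51e-05) and Phb2 (-0.19 ± 0.03, adjusted p = 6.25e-05) were lower, and Ak3 was higher (0.65 ± 0.16, adjusted p = 0.00192). At day 4 the glycolytic list had 4 higher and 2 lower of 20, and the other targets 1 higher and 2 lower of 21, while 7.54% of all genes were called in either direction.

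**Figure D5:**
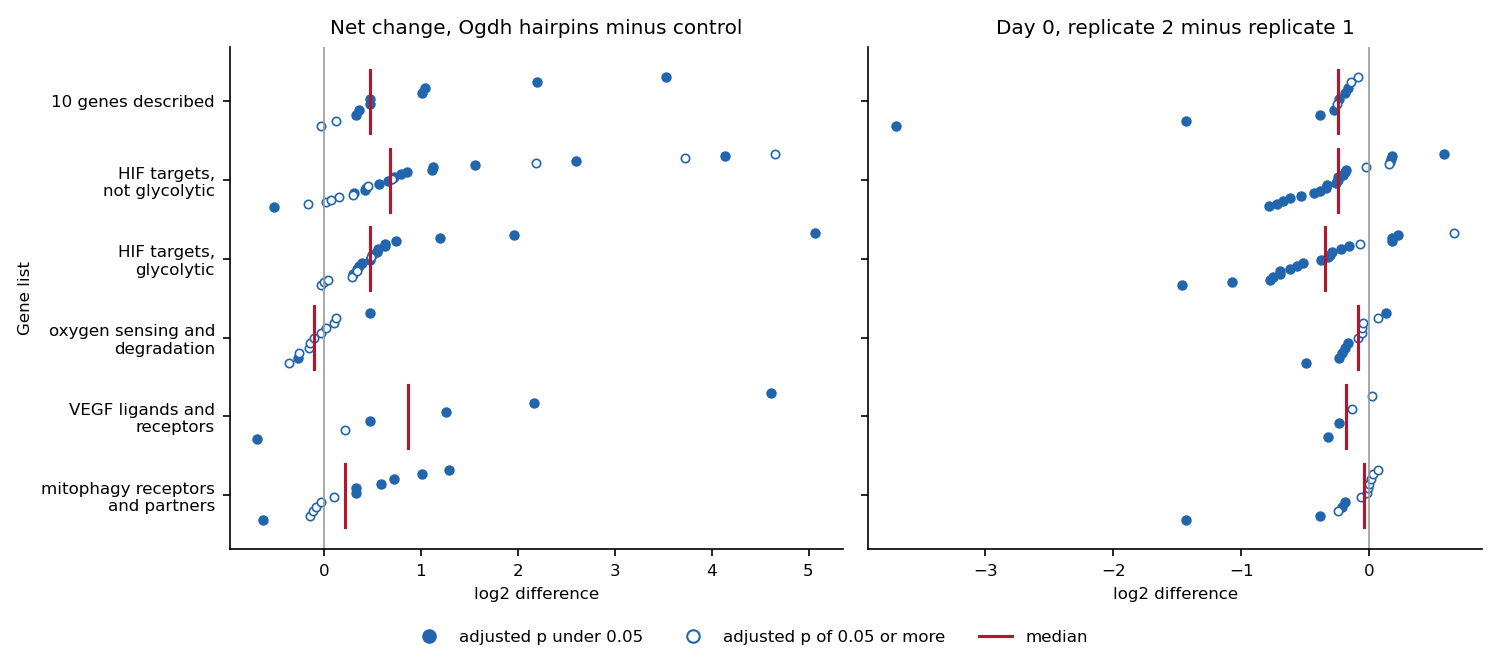
Log2 difference (x axis) of each tested gene in the lists of HIF pathway genes (y axis) for the net change and for replicate 2 minus replicate 1 at day 0 (panels). Points are genes, open where adjusted p was 0.05 or more, and lines are list medians. Both target lists lie mostly above 0 for the net change and mostly below 0 for the day 0 replicate difference.

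Per kilobase of the deposited transcript length, Egln3 had the highest mean level over the 24 libraries, 77.1 CPM per kb. Hif1a (25.2), Egln1 (20.8), Bnip3l (20.5) and Vegfa (19.4) followed, then Vhl (10.9), Bnip3 (7.44), Ndrg1 (4.66), Ankrd37 (2.62) and Ak4 (1.15 CPM per kb). This order is that of means over unlike groups, and neighbours in it overlapped: with shOgdh346 at day 4, Vegfa (28.6 to 30.5 CPM per kb) was above Hif1a (22.7 to 25.8 CPM per kb), while at day 0 Vegfa was at 11 to 13.9 and Hif1a at 17.9 to 23.8 CPM per kb. Over the 24 libraries, which share clones and days, the Pearson correlation of log2 CPM was 0.88 between Vegfa and Ankrd37, 0.83 between Vegfa and Ndrg1 and 0.77 between Bnip3 and Ak4. Among 9313 genes with a mean of at least 5 CPM, those most like Hif1a were Gtf2e2 (0.912), Ahi1 (0.880), Pde10a (0.861) and Sept7 (0.861). Those most like Vegfa were Fmo5 (0.940), Rps6ka2 (0.936), Prkcb (0.928) and Klf3 (0.927). For Bnip3 they were Rdh11 (0.915), Tpi1 (0.903), Pfkl (0.894) and Pdk1 (0.889). Tpi1, Pfkl and Pdk1 are in the list of glycolytic HIF targets.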

How the data were processed

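The authors deposited a table of raw counts, whole numbers under Ensembl gene identifiers. Tools named in the submitters' processing notes are STAR 2.6.1a, featureCounts 1.6.3, Trimmomatic 0.36 and FastQC 0.11.5, with the mouse build mm10 (GRCm38) and no roles stated. Libraries were made from polyadenylated RNA and sequenced from one end, per the labels' protocols. That text also names a human build, another counter and an RPKM matrix, which these whole-number mouse counts do not match. Strand setting and multi-mapping rule are not stated, so reads of overlapping or near-identical genes are uncertain. All 24 columns of counts matched a library, with 0 left over.

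The members and lists were chosen with earlier results of these data known. Besides Ogdh and the 10 genes, the text names up to 4 genes of each list with the smallest p for the net change and up to 3 for the day 0 replicate difference, where adjusted p was under 0.05, and the 4 genes most like Hif1a, Vegfa and Bnip3. A few others were named after their values were seen: P4ha2 and Plod2, the markers Col1a1 and Epcam, and genes that overlap a member.

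Tests used edgeR 4.0.16 in R 4.3.3 (limma 3.58.1; DESeq2 1.42.0 as an alternative), with filterByExpr, TMM, robust dispersions and the quasi-likelihood test, checked on simulated counts. Libraries of a clone and day were summed to 12 sums, and the model held the clone as block plus 1 day 4 effect for each hairpin. It had 3 residual degrees of freedom and a median prior of 6.11. That clones pair the days comes from the labels. Deviations of clones from their group means correlated over genes between the days with r of 0.60 for shOgdh346, 0.67 for shOgdh2081 and 0.84 for the control. Levels within a day came from 6 groups with no block, and since each clone enters at both days, the 6 residual degrees of freedom are overstated. Replicate 2 and replicate 1 libraries were compared singly with clone as a block at each day, and in a fit of all 24 libraries for the difference between days. A standard error is the log2 change divided by the root of the F statistic. Intervals and floors cover counting error only. Alternatives were another scaling, no filter, DESeq2, no block, either day 0 replicate alone, and leaving out each clone and each library. A search of protein sequences was planned and is not reported here.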

Additional observations from a re-analysis of the deposited data

Results flagged for a closer look

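For 8 genes the replicate 2 minus replicate 1 difference itself differed between the days, by the interaction term of edgeR's quasi-likelihood fit. The day 4 difference minus the day 0 difference (log2) was 0.193 for Hif1a (adjusted p = 0.000577), 0.230 for Egln1 (0.000461), 0.169 for Egln3 (0.000590), 0.248 for Vegfa (0.000312), 1.44 for Bnip3 (6.00e-15), 0.357 for Bnip3l (0.0291), 0.232 for Ndrg1 (0.0284) and 3.53 for Ak4 (2.93e-09). In each of these genes the replicate 2 libraries were lower on average at day 0, and the day 4 difference was nearer to 0 or above it.

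Among 60 groups of 4 libraries, 2 had a library far from the other 3 by Dixon's test. Chance gives about 1 in 20 such groups where the 4 values are independent, and here they come in pairs from 2 clones, so that rate does not hold. Ak4 was at 0.108 CPM in the day 0 replicate 1 library of shOgdh346 clone 1, which is 2 counts, and at 0 in the other 3, and since 0 allows up to 3 counts the libraries cannot be told apart. Ankrd37 was at 11.1 CPM in the day 4 replicate 2 library of shOgdh2081 clone 3, against 9.04, 9.05 and 9.16 CPM in the others.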

How the results depend on the processing

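The calls rest on 2 clones per hairpin, and a fit without a control clone has 1 left, so calls lost there do not show that the clone set the value. Without the replicate block, in which clones pair the days, the number of the 10 genes called fell to 3 for the net change, 3 for shOgdh346 and 1 for shOgdh2081 against the control, 5 for shOgdh2081 over time, 0 for the control over time, and 2 for the day 0 replicate difference. Against day 0 replicate 1 alone it was 5 for the net change and 2 for shOgdh2081 against the control. Calls over all genes stayed within 1.5 times in these comparisons. Against day 0 replicate 2 alone the number of the 10 genes called was 2 for the control over time. Leaving out 1 clone or library at a time gave 4 to 8 for the net change, 5 to 8 for shOgdh346 and 0 to 6 for shOgdh2081 against the control. It gave 5 to 8 and 7 to 8 for the change over time with shOgdh346 and shOgdh2081, 0 to 1 in the control, 1 to 5 for the day 4 level and 6 to 8 for the day 0 replicate difference. The replicate difference between days kept 6 to 8 in alternatives that were chosen after seeing the data. Bnip3l with shOgdh2081 changed sign over time against day 0 replicate 1 alone (-0.0200). Over all genes the net change called 5367, and 2732 without the block, 2392 without control clone 2 and 2084 without control clone 7. Genes called in the control over time numbered 980, with 8 to 1978 in the alternatives, and for the hairpin difference 15, with 0 to 409. The day 0 replicate difference called 5092 genes, and 2019 without the block, and the day 4 one 923, with 0 to 609 where the count moved by over 1.5 times. RLE scaling and DESeq2 left the counts of called members within 1.5 times, except where edgeR called 0 and DESeq2 called 1, Ak4, for the hairpin difference and for shOgdh346 against the control at day 0. Depth limits Ak4 and Ankrd37 most.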
